A study of Rattus norvegicus with 8 samples.

Results

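The *Id* genes, *Id1*, *Id2*, *Id3* and *Id4*, were followed on arrays of the rat *substantia nigra* (SN). Every probe whose RefSeq accession belongs to 1 of these genes was taken, which gave 4 probes, 1 for each gene and each printed as 1 spot, of the 45598 probes on the array other than controls. RNA came from the ipsilateral SN of adult female Sprague-Dawley rats, 3 months old at surgery and killed 20 weeks after a unilateral injection into the SN. The AAV-αSyn rats received an AAV6 vector that carries wild-type human α-synuclein, at 5.2e10 vector genomes per μL. The AAV-Null rats received an AAV6-Null vector at 5.3e9 vector genomes per μL, so the transgene and the higher titre cannot be told apart. The promoter that drives the transgene is not given in the sources used here. There were 4 arrays in each group, and the labels do not say whether a sample pools animals, so p-values measure the spread between these samples.

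ID proteins are helix-loop-helix proteins that lack the basic region which contacts DNA. They bind E proteins, the common partners of tissue-restricted basic helix-loop-helix (bHLH) factors, and so keep those factors from DNA. Bone morphogenetic protein (BMP) ligands act through serine/threonine kinase receptors and the transducers SMAD1, SMAD5 and SMAD9, which join SMAD4 and bind DNA, and the *Id* genes are among the best known direct targets of this pathway. In the brain they are known from astrocytes, neural stem cells and blood vessels. SKOR1 is a nuclear co-repressor of the SKI family that is known to hold back BMP-SMAD transcription, and the *Skor1* probe (A_64_P017791) was therefore read beside the *Id* probes on every array.

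Stretches of 60 bases from the 250 bases before the annotated start of each *Id* gene show what SMAD-type motifs these genes hold close to their start. They are given 5′ to 3′ on the gene's strand from the RefSeq promoter table of the rat assembly GRCr8, which held 4 of the 4 genes, and capitals mark the first match of the motifs below, read towards the start. The stretches are chr3:161671343-161671402 (plus strand) for *Id1*, chr6:47471006-47471065 (minus strand) for *Id2*, chr5:153656162-153656221 (plus strand) for *Id3* and chr17:16598478-16598537 (minus strand) for *Id4*.
Id1: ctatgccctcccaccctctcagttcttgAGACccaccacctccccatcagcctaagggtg
Id2: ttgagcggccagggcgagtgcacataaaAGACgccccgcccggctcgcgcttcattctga
Id3: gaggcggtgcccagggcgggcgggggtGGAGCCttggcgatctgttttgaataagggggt
Id4: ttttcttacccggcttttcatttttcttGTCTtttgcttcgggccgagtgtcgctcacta
The SMAD core GTCT was searched on both strands (AGAC on the other strand) and was present for *Id1*, *Id2* and *Id4* and for 84% of 33469 rat promoters of the same length. The GC-rich motif GGAGCC, also searched on both strands, was present for *Id3* and for 23% of these promoters. GGCGCC, found in 8.69% of the promoters, and the palindrome GTCTAGAC, which contains the core and was found in 0.173%, were present for 0 of the 4 genes. The matches describe these windows only, and BMP-responsive elements farther from the start were not examined.

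All 8 arrays lay on 1 slide and were read in 1 scan. The software called 74.8% to 77.5% of spots well above background on each array, the median intensity ran from 261 to 338 arbitrary units, and 0 of the *Id* and *Skor1* spots were saturated. The tissue carried the dopaminergic marker *Th*, which alone does not fix the borders of the dissection. Markers of other regions were measured too and are given below. *Th*, the rate-limiting enzyme of dopamine synthesis, read 16.30 to 16.70 (log2 intensity) over the AAV-Null arrays and 15.88 to 16.01 over the AAV-αSyn arrays. All values below are log2 processed intensities after quantile normalisation, and no probe's level is set against that of another probe, since probes differ in brightness for reasons other than the amount of RNA.

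The 4 *Id* genes were measured above background on all 8 arrays, and the AAV-αSyn levels overlapped those of AAV-Null for each gene. Of the 4 probes, 0 passed an adjusted p of 0.05 (limma, Benjamini–Hochberg adjustment over 33853 probes), where 0.0148% of all probes tested did. At an unadjusted p under 0.05 the count was again 0 of 4, against 5.64% of all probes (3.31% higher and 2.32% lower in AAV-αSyn). The 2 groups of arrays overlapped for each *Id* gene, whereas 3.83% of all probes had groups that did not overlap. With 4 probes these background shares lead to less than 1 call, so a count of 0 is no result about the *Id* genes, and the sizes of the differences and their intervals carry the comparison.

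*Id1*, the family member known from blood vessels and stem cells, read 9.79, 10.00, 9.63 and 9.66 on AAV-Null arrays 1 to 4 and 9.75, 9.63, 9.63 and 9.67 on AAV-αSyn arrays 1 to 4. The AAV-Null arrays 1 and 2 were the highest of the 8, followed by AAV-αSyn 1, and the groups overlapped. The means were 9.77 ± 0.17 (SD, n = 4) for AAV-Null and 9.67 ± 0.057 (SD, n = 4) for AAV-αSyn. The log2 fold change was -0.10 (SE 0.096, 95% interval -0.32 to 0.12, adjusted p = 0.972), a fold of 0.932 with an interval from 0.80 to 1.09. The exact permutation test over all splits of 4 against 4 arrays, two-sided, gave p = 0.314, where the smallest p it allows is 0.0286.

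*Id2*, which is widely expressed in neurons and glia, read 12.03, 11.78, 12.19 and 11.53 on the AAV-Null arrays and 11.82, 11.65, 11.86 and 11.70 on the AAV-αSyn arrays. The AAV-Null arrays held both the highest and the lowest of the 8 values, so all 4 AAV-αSyn arrays fell inside the AAV-Null range. The means were 11.88 ± 0.29 (SD, n = 4) and 11.76 ± 0.10 (SD, n = 4) for AAV-Null and AAV-αSyn. The log2 fold change of -0.12 (SE 0.14, 95% interval -0.45 to 0.21, adjusted p = 0.973) was a fold of 0.919 with an interval from 0.731 to 1.16, and its exact permutation p was 0.457.

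*Id3*, a close relative of *Id1* that often shares its sites of expression, read 6.54, 6.51, 5.72 and 6.40 on the AAV-Null arrays and 6.46, 6.56, 6.09 and 5.84 on the AAV-αSyn arrays. Each group held 1 or more low arrays, AAV-Null 3 in one and AAV-αSyn 3 and 4 in the other, and the groups overlapped almost wholly. The means were 6.29 ± 0.39 (SD, n = 4) and 6.24 ± 0.33 (SD, n = 4). The log2 fold change was -0.05 (SE 0.23, 95% interval -0.57 to 0.47, adjusted p = 0.992, exact permutation p = 0.914), so a fold between 0.672 and 1.38 lies within its interval. The median signal of the *Id3* spot was 3.48 to 5.06 times the local background, and its interval was the widest of the 4.

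*Id4*, which is known from astrocytes and neural progenitors, read 11.17, 11.17, 10.87 and 11.15 on the AAV-Null arrays and 10.93, 11.19, 11.04 and 11.21 on the AAV-αSyn arrays. The AAV-Null arrays 1, 2 and 4 were nearly equal, with AAV-Null 3 below them. The means were 11.09 ± 0.15 (SD, n = 4) and 11.09 ± 0.13 (SD, n = 4), and the log2 fold change was 0.0019 (SE 0.10, 95% interval -0.24 to 0.24, adjusted p = 0.999, exact permutation p = 1). The interval of its fold ran from 0.849 to 1.18.

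**Figure D1:**
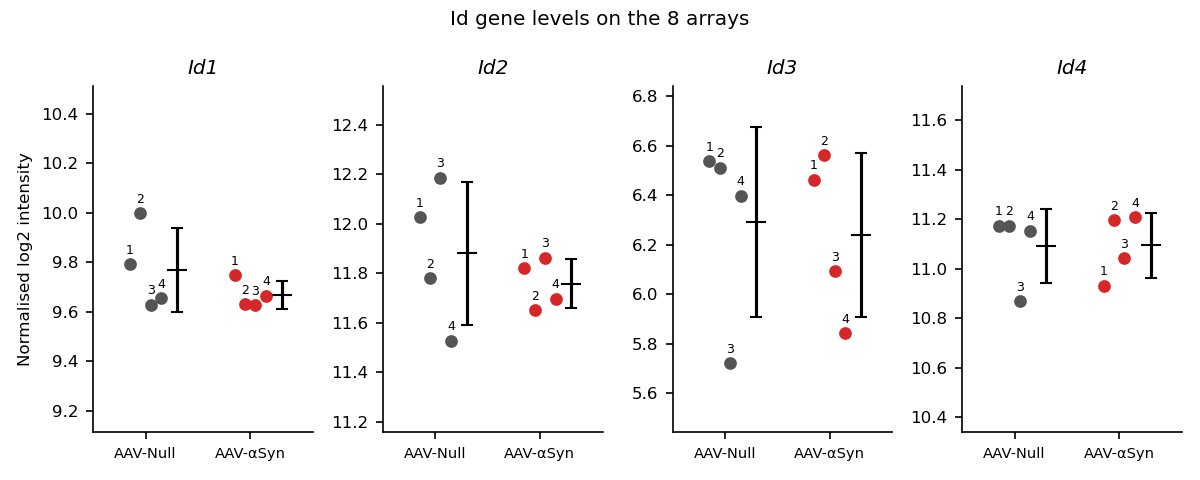
Normalised log2 intensity of *Id1*, *Id2*, *Id3* and *Id4* on each array (points, numbered by replicate) in the AAV-Null (grey) and AAV-αSyn (red) groups, with the mean and SD of 4 arrays as the black mark and bar. Each panel spans the same height on its own log2 axis, and the groups overlap in all 4 panels.

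The 4 differences stood in the middle or the lower part of those of all probes. On the same arrays 48.1% of all probes had a larger log2 fold change in size than *Id1*, 40.6% than *Id2*, 70.3% than *Id3* and 98.9% than *Id4*. The spread between arrays within a group was not unusual for *Id1* and *Id4*, since 33.5% and 54.9% of probes of like brightness (mean within 0.5 on the log2 scale) varied less than they did. *Id2* and *Id3* varied more, and 85.3% and 85.9% of probes of like brightness had a smaller spread.

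The direction of the difference turned between the sides of the slide for *Id2*, *Id3* and *Id4*, but not for *Id1*. The difference between sides was not tested. Each side of the slide held 2 arrays of each group. *Id1* was lower in AAV-αSyn on both sides, by log2 fold changes of -0.14 and -0.06. The other 3 genes had opposite signs on the 2 sides, with log2 fold changes of 0.19 and -0.43 for *Id2*, -0.18 and 0.07 for *Id3*, and -0.18 and 0.18 for *Id4*. With the side as a block, 0 of the 4 genes passed an unadjusted p of 0.05.

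AAV-Null 3 held an extreme value for 3 of the *Id* genes. It was the lowest of the 8 arrays for *Id3* and *Id4*, the highest for *Id2* and the lowest AAV-Null array for *Id1*. Without it all 4 log2 fold changes were negative, at -0.15 for *Id1*, -0.02 for *Id2*, -0.24 for *Id3* and -0.07 for *Id4*, and 0 of 4 passed an unadjusted p of 0.05. Weighting the arrays by their agreement with the rest, which gave AAV-Null 3 a weight of 0.224 and AAV-Null 2 a weight of 3.21, was the only one of 20 alternative settings in which an *Id* gene passed the unadjusted threshold. There the *Id1* difference was -0.25 on the log2 scale (adjusted p = 0.261, limma), and the number of probes of the whole array at an unadjusted p under 0.05 was 4607, in place of 1908. Over the 80 values of the 4 genes in these settings the lowest adjusted p was 0.261.

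**Figure D2:**
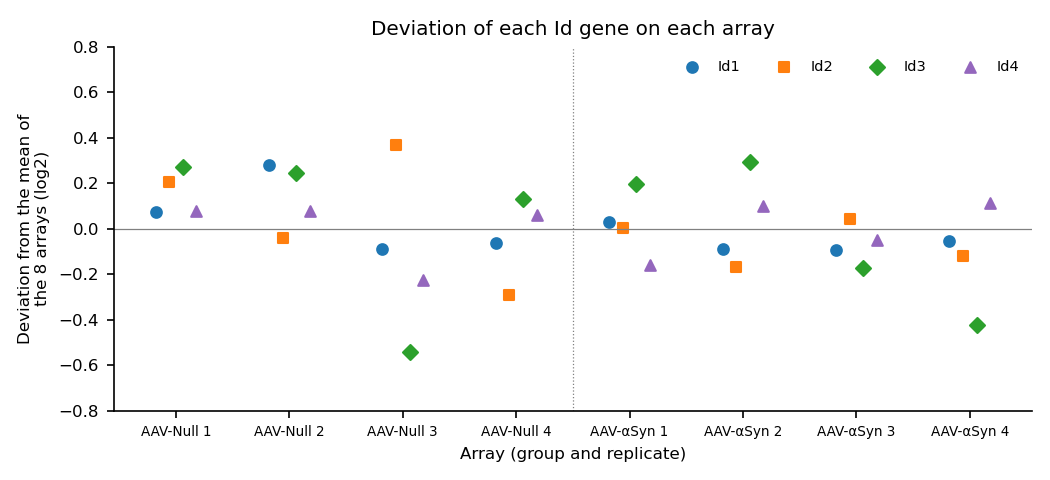
Deviation of each *Id* gene from its own mean over the 8 arrays (log2, vertical axis) on every array (horizontal axis), with 1 marker shape and colour per gene. On AAV-Null 3 the *Id2* marker is the highest in the plot and the *Id3* marker the lowest, at 0.37 and -0.54.

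No common movement of the *Id* genes across the 8 arrays was established, and 8 arrays are too few to show its absence. Of the 6 pairs, *Id2* and *Id4* had the strongest relation and it was inverse, with Pearson's r of -0.62 (exact permutation p = 0.0985) and Spearman's rho of -0.60 (exact permutation p = 0.132). *Id1* and *Id3* had r of 0.49 (p = 0.206, rho 0.48, p = 0.243, exact permutation tests), and *Id3* and *Id4* had r of 0.43 (p = 0.307, rho 0.40, p = 0.327). *Id2* and *Id3* had r of -0.40 (p = 0.320, rho -0.29, p = 0.501), *Id1* and *Id4* had r of 0.25 (p = 0.584, rho 0.36, p = 0.389), and *Id1* and *Id2* had r of 0.04 (p = 0.932, rho -0.10, p = 0.840), all by exact permutation. After adjustment over the 6 pairs 0 passed, with the lowest adjusted p at 0.480 for r and 0.584 for rho.

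Some of these relations changed with the arrays included. Without the 2 arrays farthest from the median of the first gene of a pair, r became -0.24 for *Id2* and *Id4*, 0.24 for *Id2* and *Id3*, -0.25 for *Id1* and *Id4*, 0.35 for *Id1* and *Id3*, -0.14 for *Id1* and *Id2* and 0.43 for *Id3* and *Id4*. With 1 array left out, r of *Id2* and *Id4* ranged from -0.82 without AAV-Null 1 (exact permutation p = 0.0133, adjusted p = 0.0798 over the 6 pairs) to -0.26 without AAV-Null 3. Without AAV-Null 3, r of *Id3* and *Id4* was -0.05. For *Id1* and *Id3* r stayed between 0.42 and 0.66 with each array left out. The 8 points of each pair share their arrays, their normalisation and the 2 groups.

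The *Skor1* probe separated the groups on the same arrays. It read 1.21, 1.39, 1.07 and 1.07 on the AAV-Null arrays, where it was not well above background on any of the 4, and 4.86, 4.72, 5.40 and 4.57 on the AAV-αSyn arrays, where it was above background on all 4. The probe was tested only through the AAV-αSyn arrays, and its AAV-Null values lie at background. The measured log2 difference was 3.71 (SE 0.18, adjusted p = 0.000445, limma, and 0.0033 with no filter on dim probes). Since it is taken from values at background, its size, SE and p-values are not read as a measured change. Against the mean of the lowest signals called above background on the AAV-Null arrays, the AAV-αSyn mean was 3.39-fold higher. A spot that is not called can lie above that lowest signal, so 3.39 is a guide and not a strict minimum. The call was lost when the slide row, shared by samples of 1 replicate number, entered as a block (3.71, adjusted p = 0.0919) and with normexp background correction, where the log2 difference was 0.62 (adjusted p = 0.0732). The accession of this probe (XM_006226425) is not among those of the RefSeq table used here, so its name was taken over and not checked by sequence.

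No relation between *Skor1* and the *Id* genes could be tested across the 8 arrays. *Skor1* forms 2 separate clusters that are the groups and lies at background in AAV-Null. Within the 4 AAV-αSyn arrays a correlation would have little power, so none was made and the values are given side by side. AAV-αSyn 3 had the highest *Skor1* of its group (5.40), and there *Id2* was the highest of the group, *Id1* the lowest, and *Id3* and *Id4* the next to lowest. AAV-αSyn 4 had the lowest *Skor1* (4.57), and there *Id4* was the highest of the group, *Id3* the lowest, *Id1* next to the highest and *Id2* next to the lowest. The 4 *Id* genes thus had different orders over the AAV-αSyn arrays. *Skor1* was above background in AAV-αSyn only. Beside it, the intervals leave room for falls to 0.80 of the AAV-Null level for *Id1*, 0.731 for *Id2*, 0.672 for *Id3* and 0.849 for *Id4*. These are 95% limits of 1 fit, and over the alternative settings the lowest limit of any *Id* gene was -0.72 on the log2 scale, for *Id3* without AAV-αSyn 2.

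**Figure D3:**
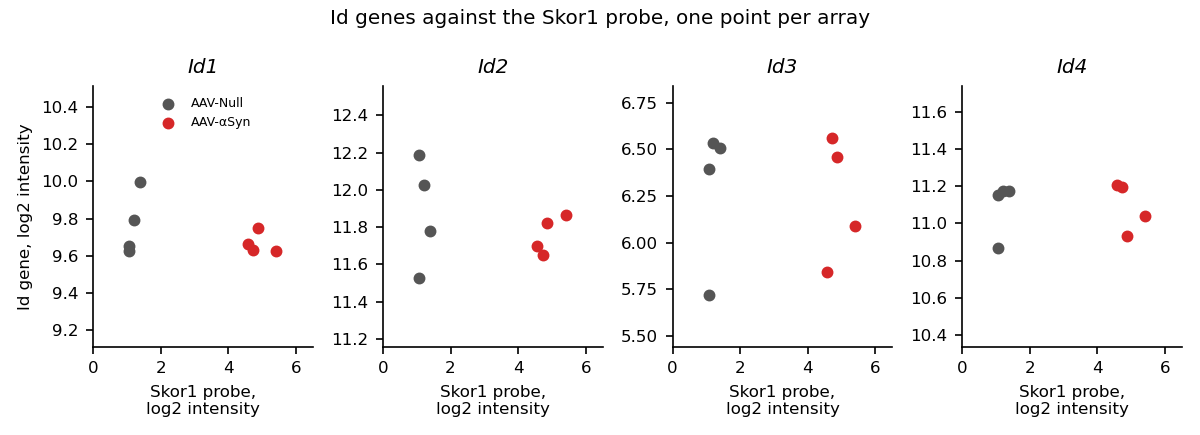
Log2 intensity of each *Id* gene (vertical axis, same span in each panel) against that of the *Skor1* probe (horizontal axis), 1 point per array, for AAV-Null (grey) and AAV-αSyn (red). *Skor1* splits the arrays at 1.07 to 1.39 and 4.57 to 5.40, while the *Id* values of the 2 clusters overlap in each panel.

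Other genes that respond to BMP in many tissues were read in the same fit. Of 14 such genes tested, 1 had an unadjusted p under 0.05 and was higher in AAV-αSyn, 0 were lower, where 5.64% of all probes passed that threshold, which leads to less than 1 of 14. The median log2 fold change was 0.05, against 0.01 over all probes. *Smad6* and *Smad7*, inhibitory SMADs induced as feedback, had log2 fold changes of 0.02 (exact permutation p = 1) and 0.15 (exact permutation p = 0.20), and *Hey1*, a repressor that BMP and Notch both induce, had 0.09 (exact permutation p = 0.457). The 1 gene was *Tmem100*, a membrane protein induced by BMP9 and BMP10 in endothelium, picked out after its values were seen. It read 11.39, 10.74, 11.06 and 10.77 in AAV-Null and 11.45, 11.44, 11.36 and 11.18 in AAV-αSyn, a log2 fold change of 0.37 (SE 0.15, exact permutation p = 0.0857, adjusted p = 0.862 with limma) with overlapping groups.

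**Figure D4:**
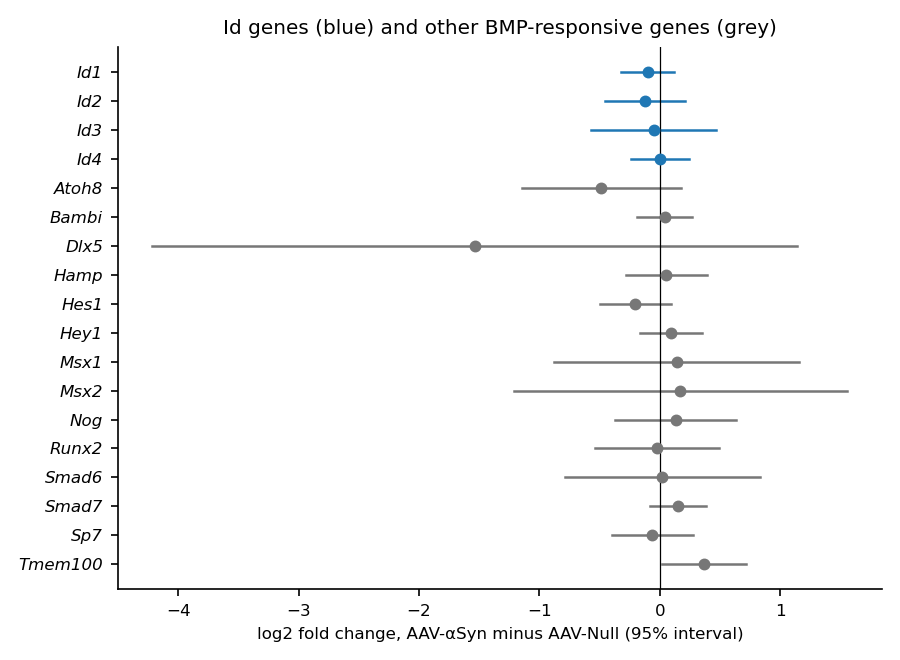
Log2 fold change (AAV-αSyn minus AAV-Null, horizontal axis) with its 95% interval for the 4 *Id* genes (blue) and 14 other BMP-responsive genes (grey). The *Id* intervals all include 0, and the wide interval of *Dlx5* belongs to a probe above background on 3 AAV-Null arrays and 1 AAV-αSyn array.

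Upstream of the *Id* genes, the lists of the BMP pathway are short, and the 5.64% of all probes at an unadjusted p under 0.05 leads to less than 1 call in each, so their counts are given as a description. Of the ligands 10 of 13 were tested, 0 of them had an unadjusted p under 0.05, and their median log2 fold change was -0.08. *Bmp4*, a ligand of the developing and adult brain, was at 10.83 ± 0.24 (SD, n = 4) in AAV-Null and 11.08 ± 0.24 (SD, n = 4) in AAV-αSyn (log2 fold change 0.25, exact permutation p = 0.20). Of the receptors 9 of 10 were tested, with 0 at an unadjusted p under 0.05 and a median of 0.04, among them *Bmpr1a* (0.07) and *Bmpr2* (0.08). The transducers *Smad1*, *Smad5*, *Smad9* and *Smad4* had log2 fold changes of 0.05, 0.02, 0.14 and 0.12, and 0 of these 4 had an unadjusted p under 0.05.

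Of the 6 inhibitors of SMAD signalling 0 had an unadjusted p under 0.05, with a median of 0.09. Their member *Tob1*, an antiproliferative protein that binds SMADs, had groups that did not overlap at a log2 fold change of 0.21 (exact permutation p = 0.0286, adjusted p = 0.902 with limma), as did 3.83% of all probes. Of the SKI family *Ski*, *Skil* and *Skor2* were not analysed here, since the RefSeq table, which names only some of the probes, paired none with them.

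Among secreted BMP antagonists, 11 of 12 were tested, with 1 higher at an unadjusted p under 0.05, 0 lower and a median of 0.03. The 1 gene was *Sostdc1*, an extracellular antagonist of BMP and WNT ligands. It read 5.74, 5.57, 5.01 and 6.37 in AAV-Null and 6.95, 7.04, 6.88 and 7.34 in AAV-αSyn. All AAV-αSyn arrays lay above all AAV-Null arrays, at a log2 fold change of 1.38 (SE 0.26, exact permutation p = 0.0286, adjusted p = 0.484 with limma), so the difference did not pass the adjustment over all probes. Over the 5 markers of ependyma and choroid plexus the mean log2 level lay between 6.81 and 7.42 in AAV-Null and between 6.76 and 8.31 in AAV-αSyn, and 0 of 5 had an unadjusted p under 0.05. *Ttr*, the choroid plexus transport protein, reached 12.33 on AAV-αSyn 2 and lay between 6.64 and 8.91 on the other 7 arrays. *Sostdc1* was highest of its group on AAV-αSyn 4 (7.34) and second highest on AAV-αSyn 2. In AAV-Null both genes were highest on array 4 and lowest on array 3. On AAV-αSyn 1 *Ttr* read 6.69, the lowest of its group, while *Sostdc1* read 6.95, above every AAV-Null array. Of the other markers of these cells, *Aqp1*, *Foxj1* and *Folr1* had log2 fold changes of 0.02, -0.15 and -0.26. *Kl* was above background on 0 AAV-Null and 2 AAV-αSyn arrays. The part of these cells in the *Sostdc1* values was not tested.

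Downstream, the partners and the opposing factors of ID proteins were read in the same way. The E proteins *Tcf3*, *Tcf4* and *Tcf12* had log2 fold changes of 0.11, 0.17 and -0.29, with 0 of 3 at an unadjusted p under 0.05, and the groups of *Tcf3*, as of 3.83% of all probes, did not overlap. Of the tissue-restricted bHLH factors 13 of 15 were tested, with 0 at an unadjusted p under 0.05 and a median of 0.10. They include *Olig1* and *Olig2*, factors of the oligodendrocyte lineage, with log2 fold changes of -0.03 and 0.16. *Tob1* and *Tcf3* were picked out after their values were seen.

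Of 5 *Hes* and *Hey* repressors tested, 1 was lower at an unadjusted p under 0.05 and 0 were higher, and the median was 0.03. *Hes5*, a bHLH repressor and Notch target of neural progenitors and glia, read 7.12, 7.74, 7.71 and 7.44 in AAV-Null and 6.49, 7.07, 6.85 and 6.60 in AAV-αSyn. Its groups did not overlap and its log2 fold change was -0.75 (SE 0.18, exact permutation p = 0.0286, adjusted p = 0.60 with limma), so it did not pass the adjustment. Over all these lists without the *Id* genes and *Skor1*, 3 of 69 genes (4.35%) had an unadjusted p under 0.05, against 5.64% of all probes. The median size of the log2 fold change over these 69 genes was 0.14, against 0.097 over all probes, a difference that was not tested.

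**Figure D5:**
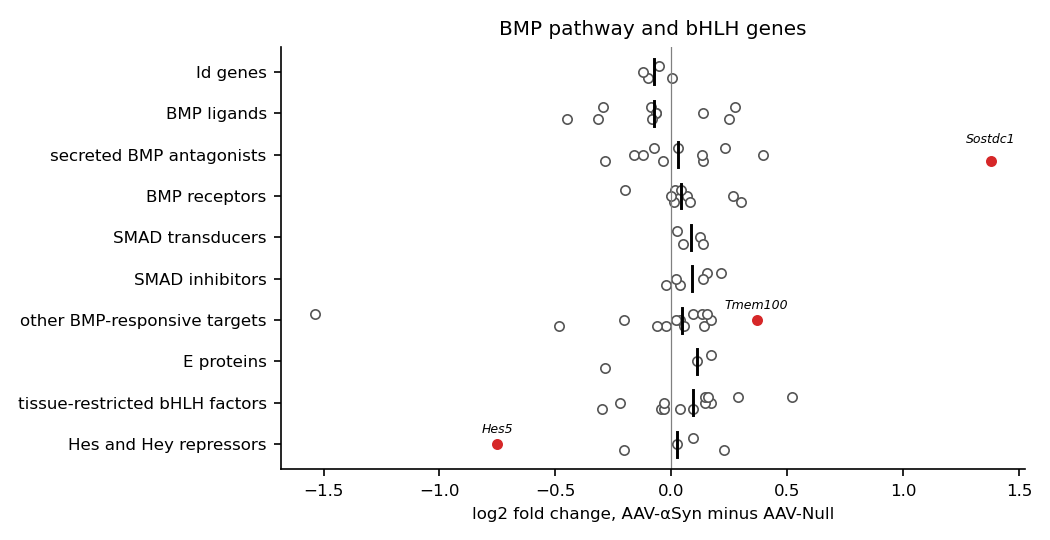
Log2 fold change (AAV-αSyn minus AAV-Null, horizontal axis) of each tested gene of the *Id* family, the BMP pathway and the bHLH network, 1 row per list, with a black line at the list's median. Filled red points have an unadjusted p under 0.05 and are named, and the 4 *Id* points lie between -0.12 and 0.0019.

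Markers of the cells in which *Id* genes are best known, and of neurons, were read beside the *Id* genes, again against 5.64% of all probes at an unadjusted p under 0.05. Of 8 astrocyte markers 0 had an unadjusted p under 0.05, and the list's mean log2 level over its genes ran from 12.80 to 13.27 in AAV-Null and from 12.95 to 13.18 in AAV-αSyn. Of 8 endothelial markers 1 was higher, *Kdr*, a VEGF receptor (log2 fold change 0.27, exact permutation p = 0.0286, adjusted p = 0.771 with limma), with mean levels between 10.00 and 10.24 in AAV-Null and 10.15 and 10.19 in AAV-αSyn. Of 5 mural cell markers 0 had an unadjusted p under 0.05.

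Of 6 dopaminergic markers 4 were lower at an unadjusted p under 0.05. They include *Th*, at a log2 fold change of -0.52 (exact permutation p = 0.0286, adjusted p = 0.484), *Ddc*, which makes dopamine from L-DOPA, at -0.25 (exact permutation p = 0.0286, adjusted p = 0.835), and *Slc6a3*, the dopamine transporter, at -0.79 (exact permutation p = 0.0571, adjusted p = 0.747). Of 4 pan-neuronal markers 1 was lower, with a median of 0.0062, and of 3 tested thalamic markers 1 was lower, with a median of -0.76. Of 6 serotonergic markers 2 were higher at an unadjusted p under 0.05, with differences from 0.04 to 2.35 on the log2 scale, and 1 of the 6, *Fev*, was above background on 1 AAV-Null and 3 AAV-αSyn arrays. Of 5 glycinergic and hindbrain markers 3 were tested, among them *Glra1*, a glycine receptor subunit, with a log2 fold change of 0.058 (exact permutation p = 0.886). *Slc6a5*, the neuronal glycine transporter, was above background on all 8 arrays and passed the adjustment at a log2 fold change of 1.28 (SE 0.12, adjusted p = 0.0424, limma), where 0.0148% of all probes passed, and the call was lost with the slide row as a block. *Dbh*, which makes noradrenaline, was above background on 0 AAV-Null and 3 AAV-αSyn arrays, and its difference is not counted. In whole tissue, fewer cells of a type and less RNA per cell cannot be told apart, and the part of cell composition in the *Id* values was not tested.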

How the data were processed

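RNA from the SN was measured on 8 Agilent 1-colour rat arrays, 4 per group. The authors deposited scanner files with the processed intensity of every spot, background-corrected by Feature Extraction and not normalised between arrays (version 11.5.1.1 per the submitters' processing notes, 12.0.3.2 per the file headers), together with a matrix of quantile-normalised log2 values. Groups came from the labels. The study's methods state 3 samples per group, while 4 per group were analysed here.

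Control and outlier spots were left out, and probes well above background (at least 0.5 of their spots) on at least 1 array were kept. Log2 intensities were quantile normalised, averaged per probe and compared with limma 3.58.1 in R 4.3.3 (lmFit, eBayes, two-sided, Benjamini–Hochberg over 33853 probes), with exact permutation tests for single genes. Precision is limited by the 8 arrays. The procedure was tested on simulated data.

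Probes were named through a RefSeq table of GRCr8, which paired 21229 of 45598 probes with a symbol. Where a gene had several probes, the brightest was used. Named genes are the *Id* genes, *Skor1* and list genes with an unadjusted p under 0.05 and groups that do not overlap. The dopaminergic markers *Th* and *Slc6a3* and the 3 genes most like each *Id* gene are also named. Other list genes were named for their role with their values known. The members, lists and tests were chosen with earlier results of these data known. Alternatives covered scaling, background correction, dim-probe filters, the deposited matrix, variance models, blocks and leaving out each array. Columns of the software's own calls were used as flags only.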

Additional observations from a re-analysis of the deposited data

Results flagged for a closer look

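*Id4* on AAV-Null 3 stood far from the other AAV-Null arrays. It read 10.87 where the other 3 read between 11.15 and 11.17, and its gap to the nearest of them was 0.933 of the group's range, past Dixon's critical value for 4 arrays. Of 12 sets of 4 arrays examined this was 1, and chance alone gives 0.6. The *Id3* value of the same array lay just short of that limit, at 5.72 against 6.40 to 6.54. The cause was not tested.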

How the results depend on the processing

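The count of *Id* genes past the adjustment was 0 in all 20 alternative settings, and the mean log2 fold change of the 4 genes (-0.07) ranged from -0.16 to -0.06 over 12 processing alternatives and from -0.12 to -0.03 over the 8 arrays left out in turn. *Id1* and *Id2* kept their negative sign throughout, between -0.15 and -0.02 for *Id1* and between -0.24 and -0.02 for *Id2* with an array left out. *Id3* ranged from -0.24 to 0.080 and *Id4* from -0.073 to 0.056 with an array left out. *Id4* also turned to -0.00044 with cyclic loess, -0.0018 in the deposited matrix and -0.045 with array weights, where *Id3* was -0.26. *Skor1* missed the adjustment with normexp background correction at an offset of 50 (log2 fold change 0.62, adjusted p = 0.0732, limma). It also missed it with the replicate block (3.71, adjusted p = 0.0919, limma), and the filter at all 8 arrays removed its probe. With an array left out the *Skor1* difference ranged from 3.56 to 3.78, always against AAV-Null values at background, so this range does not measure its precision. With normexp r of *Id1* and *Id2* was -0.094. With an array left out it ranged from -0.090 to 0.35, r of *Id2* and *Id3* from -0.62 to 0.12, r of *Id2* and *Id4* from -0.82 to -0.26, and r of *Id3* and *Id4* from -0.052 to 0.76. The causes were not tested.

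Replicate numbers, which are the rows of the slide, correlated between -0.0022 and 0.27 across groups, and 4 of 8 arrays correlated best with their own number, so same-numbered samples share a slide row and were not taken as pairs. With the replicate block the number of probes of the whole array past the adjustment went from 5 to 0. The count of probes past the adjustment ranged from 0 to 12 over the settings, with 12 under array weights, 9 with the robust trended variance and 3 without AAV-Null 1, 2, 3 or 4 in turn or with the slide side as a block. The *Id3* spot had a low signal over background, and the part of this in the spread of *Id3* was not tested.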

Other observations

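The genes whose levels followed each *Id* gene most closely over the 8 arrays differed from gene to gene. They were sought among 12594 named genes, each with 1 probe well above background on all 8 arrays. For *Id1* they were *Foxc1*, a forkhead transcription factor, *Sult6b1* and *Col1a2*, a chain of type I collagen, with Pearson's r of 0.97, 0.97 and 0.96. For *Id2* they were *Spred1*, an inhibitor of RAS signalling, *Mrpl54* and *Prpf31* (r of 0.99, 0.97 and 0.97). For *Id3* they were *Zfp143*, *Sec24d* and *Entpd2*, an ectonucleotidase (r of 0.97, 0.97 and 0.96), and for *Id4* they were *Rplp1*, a ribosomal protein, *Sfxn1* and *Sgcz* (r of 0.98, 0.97 and 0.97). Between 23 and 39 genes had r above 0.9 with any 1 *Id* gene, and no *Id* gene was among the 3 most alike of another. With 8 arrays and 12594 genes these are descriptions, and the points share arrays, normalisation and groups.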
